A study of Mus musculus with 168 samples.

Results

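Mir330 and Mir3059 are a pair of microRNA genes whose levels were higher in the cortex of Q175 Huntington's disease knock-in mice than in control mice at 6 and at 10 months. They are 2 of the 1626 rows of the count table, and they were chosen by name after earlier results of these data were known: both had passed the threshold in the comparison of Q175 with controls at both ages, and Mir3059 was among the microRNAs most strongly associated with CAG length. Those contrasts are therefore given below as descriptions without a test, and tests are given for 2 months, for sex and for age in the lines between the controls and Q175, contrasts that were not used to choose the members. The libraries hold small RNA from the cortex of mice with 1 wild-type Htt allele and 1 allele with a knocked-in human HTT exon 1 of 20, 80, 92, 111, 140 or 175 CAG repeats (Q20, Q80, Q92, Q111, Q140 and Q175), and of wild type (WT) mice, with 7 repeats, born in the same litters as Q20 mice. All lines were kept by crossing heterozygous males to C57BL/6J females, and the Q175 line arose from the Q140 line by spontaneous expansion of the repeat. Each of the 7 genotypes had 8 libraries, from 4 female and 4 male mice, at each of 2, 6 and 10 months, which makes 168 libraries. Q20 and WT mice were the controls at 2 and 10 months and Q20 mice at 6 months. The WT libraries of 6 months were kept apart, and against them both members were lower in Q175 mice.

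A microRNA gene is transcribed as part of a longer RNA, from which a hairpin is cut and then processed to short mature strands of the 5′ and 3′ arms. A mature strand is loaded into an Argonaute protein and pairs with target mRNAs mainly through its seed, bases 2 to 8, which lowers the stability or translation of the target. Many microRNAs of the brain lie in introns of protein-coding genes, their host genes, and may be transcribed together with them.

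The mature strands of both members are shown with the seed in capitals because the seed sets which microRNAs could share targets with them. All sequences are those of RefSeq on GRCm38.p6, written 5′ to 3′.
miR-330-5p: uCUCUGGGccugugucuuaggc
miR-330-3p: gCAAAGCAcagggccugcagaga
miR-3059-5p: uUUCCUCUcugccccauagggu
miR-3059-3p: cCUCUAGGgaagagaagguugg
miR-326-3p: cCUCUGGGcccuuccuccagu
The table counts reads per hairpin, so the arms cannot be told apart in the values below. The 4 strands of the members have 4 different seeds, and no seed is shared between the members. The seed of miR-330-5p is also that of miR-326-3p, whose gene Mir326 is in the table, while miR-6240, with the seed of miR-330-3p, has no row and Mir5616, with the seed of miR-3059-5p, had at most 3 counts in a library.

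The hairpins are printed with both mature strands in capitals, to show how much of each locus the counted reads can cover.
Mir330: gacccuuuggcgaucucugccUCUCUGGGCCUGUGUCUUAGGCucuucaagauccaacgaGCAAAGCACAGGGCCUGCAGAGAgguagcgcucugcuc
Mir3059: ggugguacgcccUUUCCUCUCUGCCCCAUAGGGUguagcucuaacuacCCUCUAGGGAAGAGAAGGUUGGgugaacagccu
Mir330 (transcript ENSMUST00000083609) is a hairpin of 98 bases on the plus strand of chromosome 7, from 19181465 to 19181562 of GRCm38. It lies inside Eml2, a gene of the echinoderm microtubule-associated protein family, on the same strand. Of the 7 annotated Eml2 transcripts that span the hairpin, 1 has it in an exon and 6 in an intron, and in 3 of them this is the first intron, from 19181224 to 19181708. Mir3059 (ENSMUST00000175211) is a hairpin of 81 bases on the plus strand of chromosome 10, from 101772692 to 101772772. It lies in the first intron (101681951 to 101863991) of all 6 spanning transcripts of Mgat4c, a member of the MGAT4 family of glycosyltransferase genes, on the same strand and 90741 bases into that intron. A place inside a protein-coding gene on the same strand is common, with 150 of the 329 microRNAs of the study's list (45.6%). Neither host gene has a row in this table of small RNA, so host transcripts were not measured here. Within 200000 bases of Mir330 the table holds Mir3100, which had at most 2 counts in a library, and within the same distance of Mir3059 it holds no other microRNA.

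Library totals ranged from 2041741 to 11646287 counts with a median of 4810487. Levels are TMM-normalized CPM, counts scaled to a common library size after edgeR's TMM factor has corrected each library total for composition. By mean level Mir330 was 52nd and Mir3059 132nd of 328 microRNAs. Mir330 had 2750 to 15818 counts in a library with a median of 6744, and Mir3059 had 270 to 2991 with a median of 886.5. The coefficient of variation that counting alone gives was 1.08% to 1.49% per group for Mir330 and 2.72% to 3.75% for Mir3059, whereas the 8 mice of a group varied by 3.61% to 9.55% and by 4.61% to 14.8%. As these are bulk samples, fewer cells of a type and less RNA per cell cannot be told apart. Of the 30 sets of 4 mice of 1 sex, genotype and age whose names give a cage, 28 came from 1 cage, so cage and genotype cannot be told apart between a mutant line and the controls. The Q20 and WT mice of 1 sex and age shared a cage at 2 and at 10 months. By the labels, no named cage held mice of different ages. None held mice of both sexes either, once sex was taken from the cage in the 2 libraries whose label gives the other sex. The comparisons by age and by sex are therefore also between cages.

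**Figure D1:**
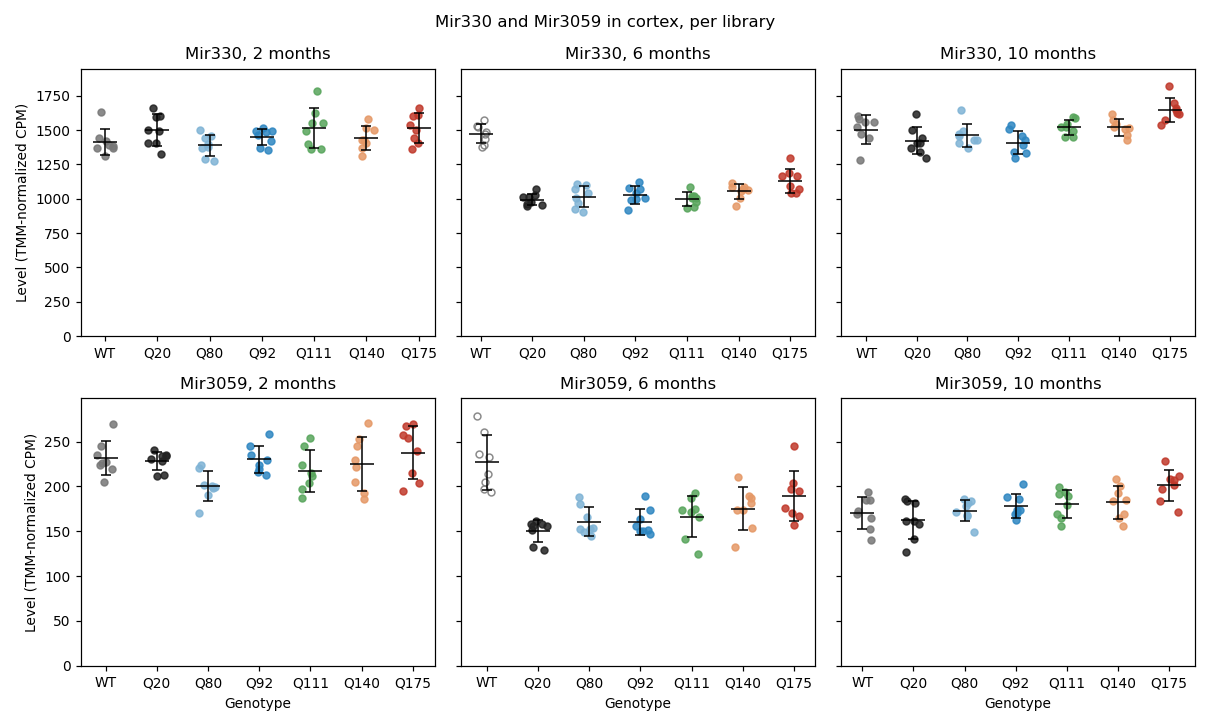
Level of Mir330 (top) and Mir3059 (bottom) in TMM-normalized CPM (vertical axis, from 0) for each genotype (horizontal axis) at 2, 6 and 10 months, with 1 point per library and the mean ± SD of 8 libraries in black. The Q175 libraries have the highest mean at 10 months for both members, and the 6-month WT libraries, drawn as open circles and kept apart, lie above every Q20 library of that age.

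At 2 months, an age that did not choose the members, neither member passed edgeR's test against controls in any line, and the largest difference was a lower level of Mir3059 in Q80 mice. Mir330 in the 16 control libraries had a lowest level of 1309, a median of 1416 and a highest level of 1661 CPM. In the 8 Q175 libraries it was 1359.6, 1519 and 1664 CPM. The Q175 libraries lay within nearly the same range as the controls, with 6 of 8 above the control median and 1 above all controls. Their log2 difference was 0.05 (SE 0.05, adjusted p = 0.836), and its approximate 95% interval, from a normal distribution, ran from -0.04 to 0.14. For Mir3059 the lowest, median and highest levels were 205, 229 and 270.0 CPM in controls. They were 195, 247 and 269.6 CPM in Q175 mice, where 5 of 8 libraries lay above the control median and 2 below all controls. The log2 difference of Mir3059 was 0.04 (SE 0.06, adjusted p = 0.948), with an interval from -0.07 to 0.15. These adjusted p-values come from edgeR's quasi-likelihood test with Benjamini-Hochberg adjustment over all microRNAs tested.

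The other lines at 2 months gave small differences of both signs. For Mir330 the log2 differences from controls were -0.05 in Q80, -0.01 in Q92, 0.05 in Q111 and -0.0014 in Q140 mice, with SEs from 0.04 to 0.05. The values of Mir3059 were -0.0048 in Q92, -0.09 in Q111 and -0.02 in Q140 mice, with SEs from 0.04 to 0.06. In these lines too no adjusted p of a member was under 0.05.

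Mir3059 in Q80 mice at 2 months came nearest to the threshold, and it was lower than in controls rather than higher. The 8 Q80 libraries had a lowest level of 169.96, a median of 199.7 and a highest level of 224 CPM. None of them exceeded the control median, and 6 lay below all 16 controls. The log2 difference was -0.18 (SE 0.05, unadjusted p = 0.00186, adjusted p = 0.217 by edgeR), and with DESeq2 the same comparison gave -0.18 and an adjusted p of 0.0294. Among the other 8 alternatives the adjusted p stayed above 0.05, so the call rests on the tool.

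In each of the 5 comparisons of a line with controls at 2 months, edgeR called 0 of 326 or 327 microRNAs (0%), so 0 calls among the members do not set them apart. At an unadjusted p under 0.05 there were 27 microRNAs for Q80, 48 for Q92, 16 for Q111, 8 for Q140 and 19 for Q175. Over all microRNAs tested, DESeq2 called 2, 9, 0, 1 and 0 at an adjusted p under 0.05, in the same order. Association with CAG length over the 56 libraries of 2 months gave a log2 coefficient per 100 repeats of 0.03 for Mir330 (SE 0.02, adjusted p = 0.864) and 0.0063 for Mir3059 (SE 0.03, adjusted p = 0.999). It called 0 of 327 microRNAs (0%) with edgeR and 0 with DESeq2, and 13 had an unadjusted p under 0.05. Between the control groups, Q20 minus WT, the log2 difference was 0.08 for Mir330 (SE 0.05, adjusted p = 0.851) and -0.02 for Mir3059 (SE 0.05, adjusted p = 0.947). Here 0 of 326 microRNAs (0%) were called by edgeR and 0 by DESeq2, and 14 had an unadjusted p under 0.05.

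**Figure D2:**
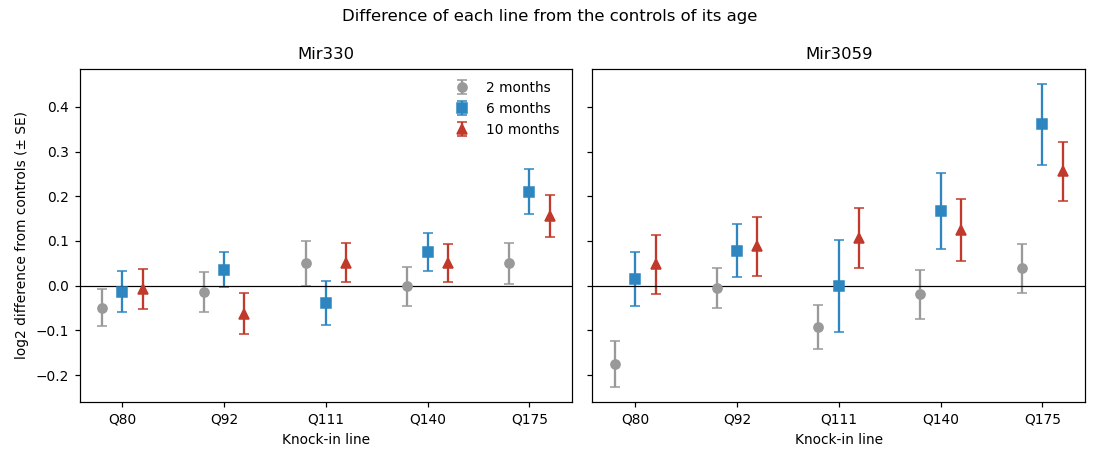
The log2 difference from controls (vertical axis, ± SE) of each knock-in line (horizontal axis) at 2 (grey circles), 6 (blue squares) and 10 months (red triangles), for Mir330 and Mir3059. Q175 stands highest at 6 and 10 months, at 0.21 and 0.16 for Mir330 and 0.36 and 0.26 for Mir3059, against 0.05 and 0.04 at 2 months.

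At 10 months the Q175 mice had the highest mean level of both members among the 7 genotypes. Mir330 in the 16 controls had a lowest level of 1279, a median of 1456 and a highest level of 1615 CPM. The 8 Q175 libraries had 1533, 1634 and 1820.1 CPM. All 8 lay above the control median and 5 above every control, so the groups overlapped in part. In the fit the log2 difference was 0.16 (SE 0.05), a level 11.4% higher. Mir3059 had 127, 167 and 194 CPM in controls and 172, 205 and 228 CPM in Q175 mice. Again all 8 Q175 libraries lay above the control median, and 6 above every control, with a log2 difference of 0.26 (SE 0.07), which is 19.4% higher.

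The ranks of these differences were modest. Ordered from the highest log2 difference down, Mir330 was 56th and Mir3059 34th of 327 microRNAs at 10 months. The share called higher was 18 of 327 microRNAs (5.5%) in this comparison, where 40 of 327 (12.2%) were called in either direction, and 8 of 325 (2.46%) at 6 months, where 9 of 325 (2.77%) were called in either direction, and both members are among them because that is how they were chosen.

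The lines between the controls and Q175 showed smaller differences at 10 months. For Mir3059 the log2 differences were 0.05 in Q80, 0.09 in Q92, 0.11 in Q111 and 0.12 in Q140 mice, each with an SE of 0.07, and 6 or 7 of the 8 libraries of each line lay above the control median. Values of Mir330 were -0.0082 in Q80, -0.06 in Q92, 0.05 in Q111 and 0.05 in Q140 mice, each with an SE of 0.04 or 0.05. In Q92 mice 2 of 8 libraries lay above the control median of Mir330, and in Q140 mice 7 of 8. These comparisons share the same control libraries. Among the Q80 to Q140 lines alone, without controls and Q175, the log2 coefficient per 100 repeats at 10 months was 0.14 (SE 0.07) for Mir330 and 0.11 (SE 0.09) for Mir3059. At 6 months the same coefficients were 0.07 (SE 0.06) and 0.18 (SE 0.10). The libraries of these lines were part of the association with CAG length in which Mir3059 had stood out, so the coefficients are descriptions.

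Ordered by mean level at 10 months, Mir330 ran from Q175 (1646 ± 86.2 CPM, SD, n = 8) through Q111 (1521 ± 54.98), Q140 (1520.0 ± 60.5), WT (1502 ± 106), Q80 (1461 ± 84.2) and Q20 (1422 ± 99.6) to Q92 (1409 ± 86.4). Mir3059 ran from Q175 (201 ± 17.4 CPM, SD, n = 8) through Q140 (182 ± 18.3), Q111 (180.2 ± 15.6), Q92 (178 ± 13.2), Q80 (173 ± 12.0) and WT (170.5 ± 17.7) to Q20 (162 ± 20.9). In both orders the step from Q175 to the next line was larger than the SD of either group, and every later step between neighbours was smaller than the larger SD. For Mir3059 the order below Q175 followed the CAG length from Q140 down to Q80, and for Mir330 it did not.

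At 6 months the same comparison used Q20 mice as controls. Mir330 had a lowest level of 944, a median of 991 and a highest level of 1069 CPM in Q20 mice, and 1040.1, 1129 and 1294 CPM in Q175 mice. All 8 Q175 libraries lay above the control median and 6 above every control, and the log2 difference was 0.21 (SE 0.05), or 15.7%. For Mir3059 the levels were 129, 156 and 162 CPM in Q20 and 157, 186 and 245 CPM in Q175 mice. Again 8 of 8 lay above the control median, 7 of them above every control, and the log2 difference was 0.36 (SE 0.09), or 28.4%. The highest Q175 library for both members, male 3, was also the deepest of all libraries. Without it the difference of mean log2 levels was 0.16 for Mir330 and 0.27 for Mir3059, against 0.18 and 0.32 with it.

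In the other lines at 6 months Mir330 differed from Q20 by a log2 of -0.01 in Q80, 0.04 in Q92, -0.04 in Q111 and 0.08 in Q140 mice, with SEs from 0.04 to 0.05. The differences of Mir3059 were 0.01, 0.08, 9.5e-05 and 0.17, with SEs of 0.06, 0.06, 0.10 and 0.09. Without covariates, the mean of Mir3059 was above that of Q20 by 6.95% in Q80, 6.53% in Q92, 10.7% in Q111 and 16.6% in Q140 mice. In these lines 3, 3, 6 and 6 of 8 libraries lay above every Q20 library. At this age 11 knock-in libraries carry the code V in their name, 2 of Q80, 4 of Q111, 2 of Q140 and 3 of Q175, while the rest of the libraries at 6 months carry the code LB, and the fits had the code as a covariate. For Mir3059 the 4 V libraries of Q111, all male, ranged from 171 to 193 CPM. Its 4 LB libraries, all female, ranged from 124 to 174 CPM. Code and sex therefore cannot be told apart in Q111, and its fitted differences from Q20 rest on the LB females. In Q80 mice the 2 V libraries had 181 and 188 CPM and the 6 LB libraries 145 to 166 CPM. In Q140 mice the 2 V libraries, both male, had 174 and 211 CPM and the 6 LB libraries 132 to 189 CPM. In Q175 mice the order of the medians was the other way, with 176 CPM in the 3 V libraries (167 to 197) and 195 CPM in the 5 LB libraries (157 to 245). Mir330 in Q175 mice had a median of 1071 CPM in V and 1162 CPM in LB libraries. The part of the code in the difference of a line from Q20, which had no V library, was not tested.

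The Q175 difference is given next in subsets of the libraries that chose the members, so the direction is set by that choice and its repeat is no further evidence. With LB libraries alone at 6 months the log2 differences from Q20 were 0.19 (SE 0.05) for Mir330 and 0.34 (SE 0.09) for Mir3059. In 5 Q175 and 6 Q80 LB libraries with the L numbers 1 or 2 in their names, a subset chosen after seeing the data, the differences of Q175 from Q80 were 0.19 (SE 0.06) and 0.31 (SE 0.09). At 10 months, against Q20 alone they were 0.20 (SE 0.05) and 0.29 (SE 0.08), and against WT alone 0.11 (SE 0.05) and 0.22 (SE 0.07). Controls and Q175 shared 3 L numbers at 10 months. Within L number 6 the differences were 0.14 (SE 0.06) for Mir330 and 0.24 (SE 0.09) for Mir3059, within 7 they were 0.21 (SE 0.09) and 0.37 (SE 0.13), and within 8, with 1 Q175 library, 0.19 (SE 0.08) and 0.17 (SE 0.11). What the L number stands for is not given in the sources used here.

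**Figure D3:**
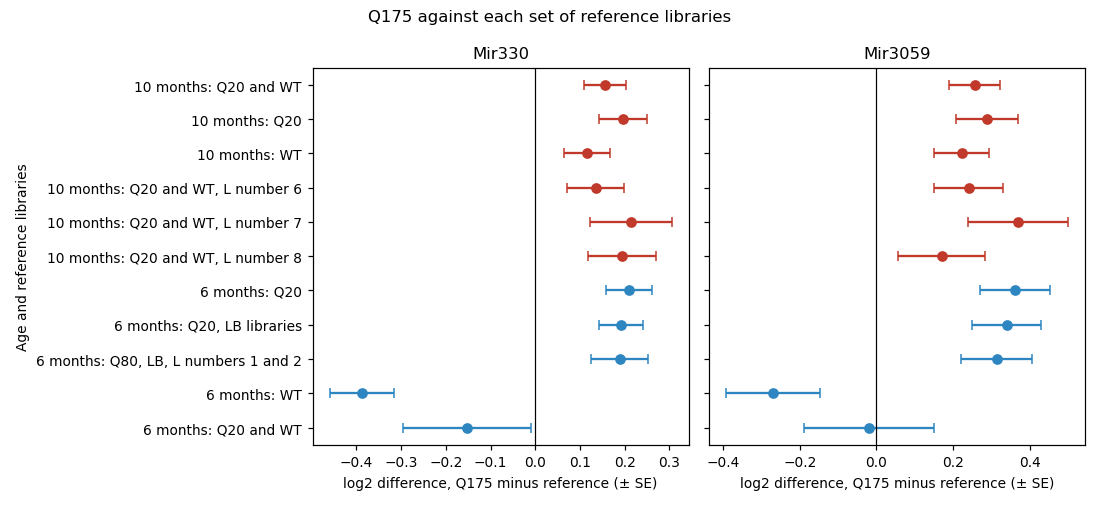
The log2 difference of Q175 from each set of reference libraries (horizontal axis, ± SE, Q175 minus reference) for Mir330 and Mir3059, with 10 months in red and 6 months in blue. All sets of 10 months and the Q20 and Q80 sets of 6 months lie above 0, while the 6-month WT set gives -0.39 and -0.27 and the Q20 and WT set -0.15 and -0.02.

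The WT libraries of 6 months stood apart. The study's methods list no WT cortex samples of that age in this series, and the library names follow the scheme of 2 and 10 months rather than that of the other 6-month libraries. Mir330 had a lowest level of 1377, a median of 1479.5 and a highest level of 1569 CPM in these 8 libraries, all above the highest Q20 library at 1069 CPM. Mir3059 had 193, 223 and 279 CPM, again above every Q20 library. Such a lack of overlap, with WT higher, was found for 27 of 322 microRNAs (8.39%) in this comparison. The log2 difference of WT from Q20 at 6 months was 0.60 (SE 0.06) for Mir330 and 0.63 (SE 0.09) for Mir3059, larger than that of Q175 from Q20. Against these WT libraries Q175 was lower, by -0.39 (SE 0.07) and -0.27 (SE 0.12). Genotype and the set of libraries cannot be told apart here.

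The level of Mir330 in the knock-in libraries was also lower at 6 months than at either other age. Its group means were 994 to 1132 CPM at 6 months, 1388 to 1516 CPM at 2 months and 1409 to 1646 CPM at 10 months. Means of Mir3059 over the knock-in lines were 201 to 238 CPM at 2 months, 150.3 to 189 CPM at 6 months and 162 to 201 CPM at 10 months. Since the 6-month libraries follow another naming scheme, 6 months was not tested against another age.

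Age was tested between 2 and 10 months in the Q80, Q92, Q111 and Q140 mice, 32 libraries at each age. The 2-month libraries took no part in the choice of the members, while the 10-month libraries of these lines were part of the association with CAG length, in which Mir3059 had stood out. Mir3059 fell with age while Mir330 did not pass the test. Mir3059 had a lowest level of 169.96, a median of 218 and a highest level of 270.3 CPM at 2 months. It had 149.5, 178 and 208 CPM at 10 months, where all 32 libraries lay below the 2-month median and 12 below every 2-month library. The log2 difference was -0.30 (SE 0.03, adjusted p = 5.50e-12 by edgeR), a level 18.6% lower. By line, the difference of mean log2 levels was -0.21 in Q80, -0.37 in Q92, -0.27 in Q111 and -0.30 in Q140 mice. Mir330 had 1272, 1437 and 1785 CPM at 2 months and 1293, 1481 and 1645 CPM at 10 months, with a log2 difference of 0.02 (SE 0.02, adjusted p = 0.387) and an approximate 95% interval from -0.02 to 0.06. When library totals alone were used in place of TMM factors, the value of Mir330 turned to -0.06 (adjusted p = 0.0215).

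Changes with age were common, so the call of Mir3059 is not particular to it. The test called 200 of 327 microRNAs (61.2%), of which 97 rose (29.7% of those tested) and 103 fell (31.5%). With library totals alone 72 rose and 140 fell. Of the 2-month libraries 2 of 32 and of the 10-month libraries 17 of 32 had the L number 7, and no other L number was shared by both ages, so age and L number cannot be told apart.

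In the groups that chose the members the age difference is given as a description. In the 16 controls of each age the log2 difference of 10 from 2 months was -0.46 (SE 0.05) for Mir3059 and 0.01 (SE 0.04) for Mir330. In Q175 mice it was -0.24 (SE 0.08) for Mir3059 and 0.12 (SE 0.05) for Mir330. All 8 WT and all 8 Q20 libraries of 10 months had less Mir3059 than any 2-month library of their genotype, as did 2 of 8 Q175 libraries. Such a lack of overlap, with 10 months lower, was found for 9 of 325 microRNAs (2.77%) in WT and for 16 of 327 (4.89%) in Q20 mice. In the other lines, 10-month libraries below every 2-month library of their line were 3 of 8 in Q80, 8 in Q92, 4 in Q111 and 5 in Q140 mice. The share over all microRNAs is not given for those lines. Whether the age difference itself differs between Q175 mice and controls was not tested, since the Q175 and control libraries chose the members. The median of Mir3059 in Q175 mice was 247 CPM at 2 months and 205 CPM at 10 months, so its higher level than in controls at 10 months was still below its own level at 2 months. For Mir330 the median of Q175 mice was 1519 CPM at 2 months and 1634 CPM at 10 months.

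**Figure D4:**
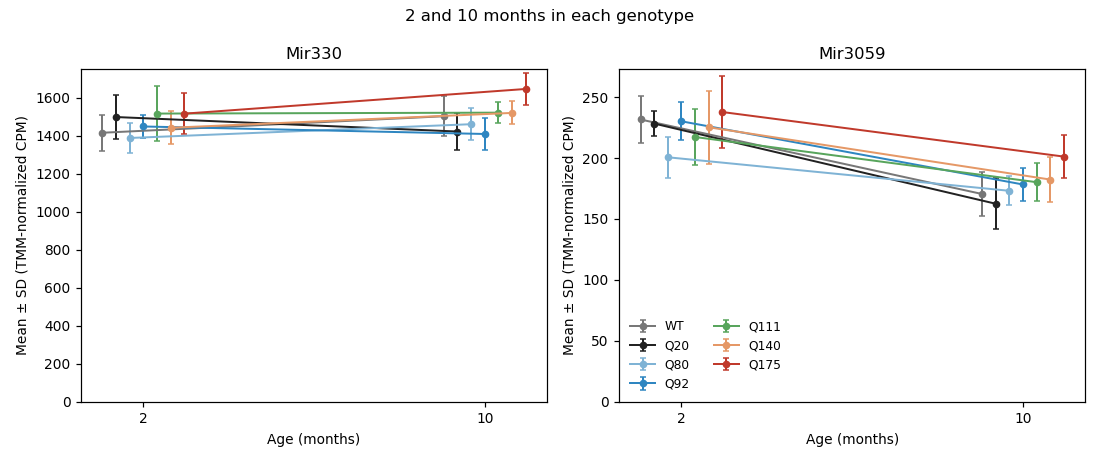
Mean ± SD (8 libraries each) of Mir330 and Mir3059 in TMM-normalized CPM (vertical axis, from 0) at 2 and 10 months (horizontal axis), with 1 line per genotype, shifted sideways for legibility. Mir3059 is lower at 10 months in all 7 genotypes, from -0.21 on the log2 scale in Q80 to -0.50 in Q20 mice, and Mir330 changes by -0.07 in Q20 to 0.12 in Q175 mice.

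Sex made no difference that passed the test. Over all libraries of 2 and 10 months, 28 of each sex at each age, the log2 difference of females from males was -0.01 for Mir330 (SE 0.02, adjusted p = 0.920) and 0.00010 for Mir3059 (SE 0.03, adjusted p = 0.998). The approximate 95% intervals ran from -0.04 to 0.02 and from -0.05 to 0.05. In the same test edgeR called 2 of 328 microRNAs (0.61%). Mir3059 had a mean of 221 ± 26.2 CPM in females and 228 ± 20.1 CPM in males at 2 months (SD, n = 28 each) and of 181 ± 18.1 and 175 ± 20.5 CPM at 10 months. The change of the sex difference from 2 to 10 months was 0.10 on the log2 scale for Mir3059 (SE 0.05, unadjusted p = 0.0476, adjusted p = 0.642) and -0.02 for Mir330 (SE 0.03, adjusted p = 0.9997). In that test edgeR called 0 of 328 microRNAs (0%) and DESeq2 0, and 25 had an unadjusted p under 0.05.

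Mir326, hosted by the beta-arrestin gene Arrb1 and sharing the seed of miR-330-5p, did not pass the test of Q175 against the controls of the same age at 2, 6 or 10 months. At 10 months it had a lowest level of 397, a median of 443 and a highest level of 634 CPM in controls and 369, 428 and 479.7 CPM in Q175 mice. Its log2 difference of Q175 from controls was -0.12 (SE 0.07, adjusted p = 0.336) at 10 months, 0.04 (SE 0.10, adjusted p = 0.872) at 6 months and -0.06 (SE 0.05, adjusted p = 0.836) at 2 months. With age it rose in the Q80 to Q140 lines by a log2 of 0.20 (SE 0.03, adjusted p = 3.36e-09). In the 6-month WT libraries it had a lowest level of 99.2, a median of 112.1 and a highest level of 370.3 CPM, so 1 library stood far above the median.

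The likeness of other microRNAs was measured as Pearson's r over the 20 means of log2 level by genotype and age, without the 6-month WT libraries, for 220 microRNAs with a mean of at least 10 CPM. These points share libraries, age and library set, and no p is given. Most like Mir330 were Mir667 (r = 0.99), Mir188 (0.98), Mir300 (0.98), Mir149 (0.98) and Mir377 (0.98), and least like it were Mirlet7i (-0.98) and Mir98 (-0.97). Most like Mir3059 were Mir296 (r = 0.87), Mir323 (0.87), Mir130a (0.85), Mir344c (0.84) and Mir139 (0.84), and least like it were Mir320 (-0.86) and Mir340 (-0.84). The members themselves had an r of 0.61, at which Mir3059 was 75th of 219 in likeness to Mir330. After the means were centred within each age, a step added after seeing the data, it was 0.78, a value that the choice of both members for a higher level in Q175 mice favours and from which nothing is read. Across libraries within an age, as deviations from the group mean, r between the members was 0.30 at 2 months (n = 56), 0.64 at 6 months (n = 48) and 0.47 at 10 months (n = 56). The library code was not taken out at 6 months. No values for other pairs are given, so these do not set the members apart.

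Marker microRNAs of cell types in the dissected tissue were compared between Q175 and controls, as background to the bulk values. The neuronal list (Mir124a, Mir9, Mir128 and Mir138 genes, 8 of 10 tested) had a summed level of 94984 to 112907 CPM in controls at 10 months. In Q175 mice of that age the sum was 91438 to 103089 CPM. Its members differed widely in level. Over all libraries the median was 37698 CPM for Mir9-2 and 30548 CPM for Mir128-1, but 9.89 CPM for Mir124a-2 and 109.5 CPM for Mir124a-3. Over all microRNAs 22 of 327 (6.73%) fell in Q175 mice at 10 months. Of the 8 neuronal markers 3 fell, namely Mir128-2 (log2 -0.20, adjusted p = 0.00163), Mir128-1 (-0.16, adjusted p = 0.0375) and Mir124a-3 (-0.42, adjusted p = 0.0447). Of the 6 markers of choroid plexus and ependyma 2 fell, Mir204 (-0.72, adjusted p = 0.0398) and Mir1298 (-1.40, adjusted p = 0.0375), and the sum was 3354 to 13599 CPM in controls and 3357 to 3948 CPM in Q175 mice. None of the 2 oligodendrocyte, 2 microglial or leukocyte, 3 endothelial or mural, 1 erythrocyte and 1 liver markers tested was called at 10 months, and none of any list at 2 or 6 months. The liver marker Mir122 was at a median of 1.86 CPM in the controls of 10 months. Between 2 and 10 months in the Q80 to Q140 lines, 97 of 327 microRNAs (29.7%) rose and 103 (31.5%) fell. Of the 8 neuronal markers 5 rose and 1 fell. The summed oligodendrocyte markers went from a median of 452.1 to 623.8 CPM, with 1 of 2 called higher. Of the 6 markers of choroid plexus and ependyma 4 rose and 2 fell. Of the 2 microglial or leukocyte markers 1 rose and 1 fell, and of the 3 endothelial or mural markers 1 fell. The erythrocyte marker rose, and the liver marker was not called. The part of cell composition in the levels of Mir330 and Mir3059 was not tested.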

How the data were processed

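Small RNA of mouse cortex was sequenced as strand-specific single-end reads, which the authors clipped, aligned to mm10 with STAR and, by the methods, counted with HTSeq. They deposited an estimated count per Ensembl transcript and library without normalization; of values above 0, 48.1% are not whole, but all values of Mir330 and Mir3059 are. The submitters' processing notes name CASAVA 1.8.2. A deposited FPKM table was not used. Columns were matched to samples by the labels, and in 2 libraries the sex of the cage was used where the label differs.

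The members and lists were chosen with earlier results of these data known. Estimated counts were rounded, and 1228 transcripts were named with GENCODE vM21 (GRCm38), which matched 329 of the study's 480 microRNAs. In each fit, those with at least 1 count were tested with edgeR 4.0.16 (R 4.3.3), TMM factors and its two-sided quasi-likelihood test in robust form. Covariates were sex and, for the lines at 6 months, the library code. Age fits over more than 1 genotype also had genotype, and sex fits had a term for each genotype and age. Fits within an L number had no covariate. The p-values were adjusted by Benjamini-Hochberg with a threshold of 0.05. An SE is the coefficient divided by the square root of F. The 6-month WT libraries were left out except where named. Named microRNAs were the members, microRNAs with a seed of theirs or within 200000 bases, and for each the 5 highest and 2 lowest in likeness, computed on log2(CPM + 0.5). Alternatives were RLE factors, library totals alone, DESeq2 1.42.0, filterByExpr, all transcripts, label sex, the L number, other controls and a replicate block. The fit was run on simulated counts. The planted changes were larger than the tested differences of the members, so power at their size was not tested. No 2 libraries of a group were alike within sampling noise, with a chi-square per degree of freedom of at least 15.8. P-values measure the spread between mice, which shared cages. The approximate intervals use the SE of the same fit, so they carry the same spread between mice. The counting error covers counting only, and PCR copies could not be told from separate molecules.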

Additional observations from a re-analysis of the deposited data

Results flagged for a closer look

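In 2 of the 42 groups of 8 libraries examined, 1 library stood apart from the other 7 by more than the 95% limit of Dixon's test, which chance does in about 1 in 20 groups. The level of Mir330 in 10-month Q80 male 3 was 1645 CPM, where the other 7 libraries lay between 1367 and 1489 CPM. In 2-month WT female 3 it was 1632 CPM, where the others lay between 1309 and 1438 CPM.

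The 6-month WT libraries, which the comparisons left out, had a median of 1479.5 CPM for Mir330 and 223 CPM for Mir3059, above all Q20 libraries of that age.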

How the results depend on the processing

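Of 160 alternative values of the tested comparisons of the members, 148 kept their direction and side of the threshold. With DESeq2, Mir3059 in Q80 mice at 2 months passed (-0.18, adjusted p = 0.0294; range over all settings 0.0294 to 0.725). Signs turned near 0 for Mir3059 in Q92 mice at 2 months (0.0042 with RLE, 0.0048 with DESeq2, 0.0069 with filterByExpr, 0.0020 with the L number, 0.022 with Q20 alone), for CAG length (-0.0031 with the L number), for sex (-0.00057 with DESeq2, -0.0023 with filterByExpr), and for Mir330 in Q175 mice at 2 months with Q20 alone (-0.00015). The age value of Mir330 turned to -0.059 with library totals alone and -0.019 with all transcripts. Counts of calls at 2 months moved from 0 to 1 (library totals) and 2 (DESeq2) for Q80, to 9 (DESeq2), 4 (filterByExpr) and 5 (L number) for Q92 and to 1 (DESeq2) for Q140, and with age from 200 to 340 with all transcripts, where more features were tested. Elsewhere the cause was not tested. Library totals alone called 72 higher and 140 lower with age, against 97 and 103.

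With the 6-month WT libraries as the controls the differences of Q175 turned to -0.39 for Mir330 and -0.27 for Mir3059, and with Q20 and WT together to -0.15 and -0.019. Leaving out 1 library at a time gave 0.16 to 0.20 for Mir330 and 0.27 to 0.36 for Mir3059 at 6 months, and 0.15 to 0.19 and 0.25 to 0.31 at 10 months. Leaving out 1 line at a time gave age values of 0.01 to 0.05 for Mir330 and -0.31 to -0.26 for Mir3059. Same-numbered mice were not paired by the labels, and their deviations had a median r of -0.11 over 162 pairs at 2 months and 0.04 over 162 pairs at 10 months. With the replicate block the age values were 0.02 for Mir330 (adjusted p = 0.460) and -0.29 for Mir3059 (adjusted p = 3.23e-11), Mir3059 in Q80 mice at 2 months was -0.20 (adjusted p = 0.103), and no call changed. Counting error was below the spread between mice in every group for both members. How precision changes with depth or the number of mice was not tested.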
